A study of Mus musculus with 12 samples.

Results

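The genes described here build the mitochondrial protein import machinery and charge the tRNAs of mitochondrial translation. They were chosen by a rule on gene names, with earlier results of these data known. The rule takes each deposited mouse gene whose symbol starts with Tomm or Timm and a digit, or is a letter followed by ars2. The rule found 42 of 18050 genes, made up of 10 Tomm genes, 15 Timm genes and 17 synthetase genes. RNA was sequenced from the left ventricle of wild type mice, 7 days after an operation that was either MI, read here as myocardial infarction, or a sham procedure. Each group held 6 libraries, numbered 1 to 6, and all animals shared the wild type genotype. The labels give neither strain nor age, and do not say that libraries came from separate animals, so each p-value reflects library-to-library spread alone, and that spread may be technical.

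Nearly all mitochondrial proteins are made in the cytosol and imported. Precursors pass the TOM complex of the outer membrane, then the TIM23 complex into the matrix or the TIM22 complex into the inner membrane, with small TIM proteins escorting hydrophobic precursors between the membranes. The few proteins that mitochondria make themselves are subunits of oxidative phosphorylation, and each mitochondrial tRNA must first be loaded with its amino acid by a nuclear-encoded synthetase. Heart muscle is among the tissues richest in mitochondria, and inherited defects of several of these synthetases cause cardiomyopathy in humans.

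Expected counts summed to between 14168412 and 18602226 in MI libraries and between 9140353 and 16066681 in sham libraries. The submitters' processing notes part the libraries into replicates 1 and 2 and replicates 3 to 6, and the 2 sets are treated as such throughout. Within replicates 3 to 6 libraries lay very close together, with a biological coefficient of variation of 0.0207 in MI and 0.0293 in sham, against 0.192 in MI and 0.112 in sham in replicates 1 and 2. A gene is therefore said to have risen or fallen only where the edgeR test over 12 libraries and the same test with replicates 3 to 6 summed and counted once per group both called it, at an adjusted p under 0.05. The MI libraries of replicates 3 to 6 also stood apart in other respects. Hbb-bs and Hbb-bt made up 0.0596% to 0.194% of their beta-globin counts, against at least 99.98% in MI replicates 1 and 2 and at least 99.87% in every sham library. Their 8 lung markers summed to 179 to 183 CPM (TMM-scaled counts relative to library size), against 0.622 to 1.33 CPM in sham replicates 3 to 6, with no lung marker at 0 in MI and 4 at 0 in sham. In replicates 1 and 2 the lung sum was 2.64 to 2.84 CPM in MI and 0.228 to 0.296 CPM in sham.

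Cardiomyocyte markers moved with the groups. Their 10 genes summed to 5923 to 8751 CPM in MI against 100868 to 107178 CPM in sham in replicates 1 and 2, and to 29017 to 29480 CPM in MI against 97545 to 100706 CPM in sham in replicates 3 to 6. No marker was at 0 in any group, 9 of 10 fell, and their median log2 fold change was -2.30. The 5 fibroblast markers summed to 43927 to 54401 CPM in MI against 2506 to 2837 CPM in sham in replicates 1 and 2, and to 20773 to 20985 CPM in MI against 2460 to 2601 CPM in sham in replicates 3 to 6. The 5 macrophage markers, which all rose, summed to 2983 to 4513 CPM in MI against 399 to 412 CPM in sham in replicates 1 and 2, and to 2930 to 3053 CPM in MI against 697 to 739 CPM in sham in replicates 3 to 6. The sum of the 4 endothelial markers went opposite ways in the 2 sets. It was 453 to 489 CPM in MI against 794 to 923 CPM in sham in replicates 1 and 2. In replicates 3 to 6 it was 798 to 821 CPM in MI against 618 to 641 CPM in sham. Pecam1, Cdh5 and Kdr were lower in MI in replicates 1 and 2 and higher in replicates 3 to 6. Tie1 was lower in MI in both sets, with log2 fold changes of -0.88 and -0.13, and fell. In whole ventricle, fewer cells of a type and less RNA per cell cannot be told apart. The part of cell makeup, and of the features of MI replicates 3 to 6, in the differences below was not tested.

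Import and synthetase genes were lower after MI almost without exception. Of 40 tested members, 37 fell, 0 rose and 3 did not pass (Timm10b, Tomm34 and Wars2), where 29.8% of all tested genes fell and 28.1% rose by the same rule. The 12-library test alone called 39 lower, against 38.0% of all genes, and 0 higher, against 37.9%. The test with replicates 3 to 6 counted once called 37 lower, against 29.5%, and 0 higher, against 28.2%. The median log2 fold change was -1.14 over 12 libraries, against 0.01 over all tested genes. Members ran from -1.74 for Fars2 to -0.13 for Tomm34. Timm8a2, with 0 to 2 counts per library, was never tested, and Tomm20l passed the filter on low counts only in replicates 3 to 6.

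The fall was seen in each set alone. In replicates 1 and 2, edgeR called 37 of 40 members lower, against 32.9% of all genes, and 0 higher, against 34.1%, with a median of -1.62. In replicates 3 to 6 it called 40 of 41 lower, against 39.6% of all genes, and 0 higher, against 42.3%, with a median of -0.83. All MI libraries lay below all sham libraries for 40 of 42 members in replicates 1 and 2, against 41.1% of tested genes, and for 40 of 42 in replicates 3 to 6, against 38.9%. Across all 12 libraries this held for 29 of 42 members, against 21.3% of tested genes.

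**Figure D1:**
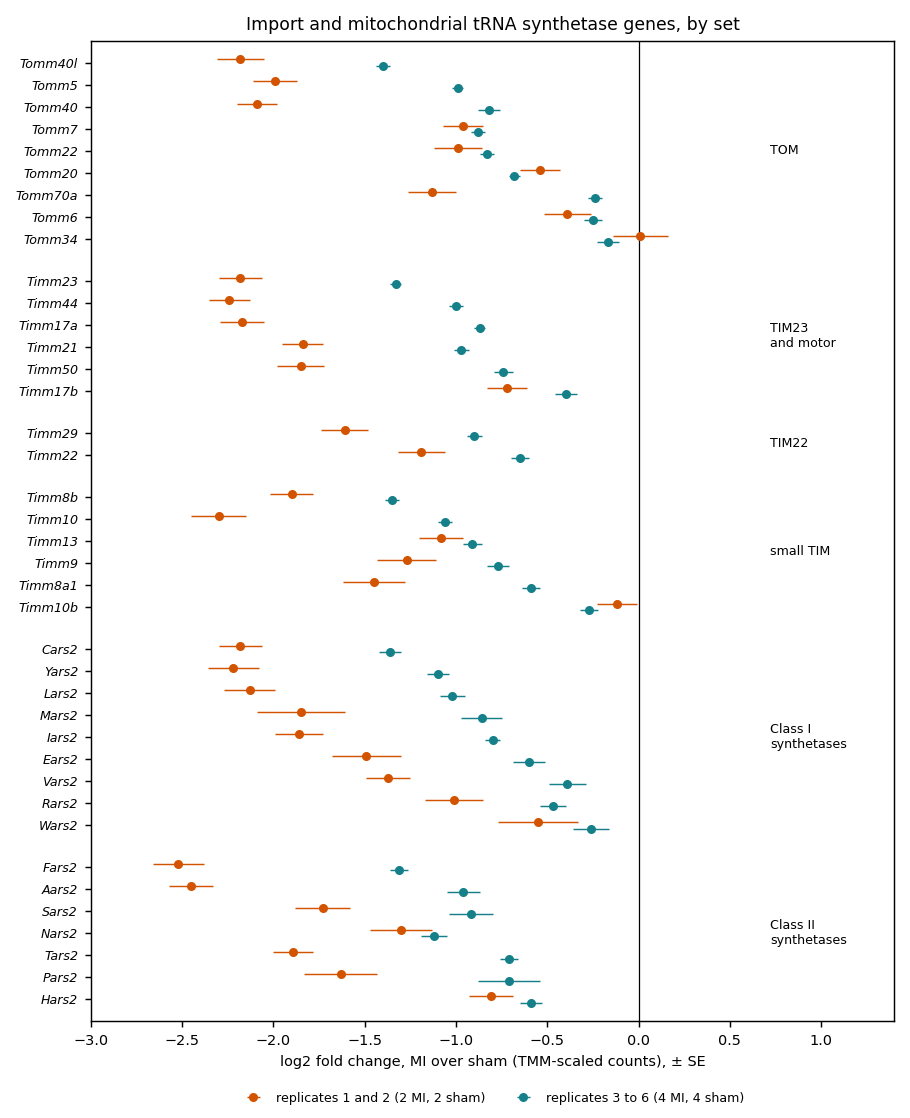
The log2 fold change of MI over sham (x axis, TMM-scaled counts, bars ± SE) is plotted for 39 members tested in both sets, grouped by role, with replicates 1 and 2 in orange and replicates 3 to 6 in teal. Nearly all points lie left of 0, and the orange points reach from -2.52 (Fars2) to 0.01 (Tomm34) where the teal points reach from -1.40 (Tomm40l) to -0.17 (Tomm34).

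These directions are relative to the typical gene, which TMM scaling places near 0. On library size alone the median of all genes moved to 0.42 and that of the members to -0.73, and Timm10b, Tomm34, Tomm6 and Wars2 turned positive. On the deposited TPM scale, the median log2 ratio of MI over sham was -0.96 for the members and 0.71 for all tested genes in replicates 1 and 2, and -0.23 for the members and 0.62 for all tested genes in replicates 3 to 6. Mean TPM was lower in MI for 35 of 40 members in replicates 1 and 2, against 28.3% of tested genes, and for 29 of 40 in replicates 3 to 6, against 22.7%. In replicates 1 and 2 mean TPM was above sham for Timm10b, Tomm20, Tomm34, Tomm6 and Wars2, and Tomm20, which fell by both edgeR tests, averaged 37.6 TPM in MI and 34.1 TPM in sham there. Members above sham by mean TPM in replicates 3 to 6 included Ears2, Rars2, Timm10b, Timm17b, Timm8a1, Tomm34, Tomm6, Tomm70a, Vars2 and Wars2. Statements that a gene fell are thus relative to the typical gene, and in ratios between 2 genes of the same library, given further on, library scaling cancels except through a pseudocount of 0.1 CPM.

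Promoter sequence is shown for members that moved together and for the member that moved least. RefSeq (GRCm38.p6) gave windows from 250 bases before to 50 after the start for 36 of 42 members, and not for others such as Hars2, Pars2, Timm21, Tomm40l and Tomm7. The ETS/GABP core CCGGAAG, on either strand, was in 13 of 36 members (36.1%), against 9.93% of 27025 genes with a window and 15.6% of the 14209 that are in the deposited table, and it was in 7 of 17 windows (41.2%) of synthetases of the cytosol or of both compartments and their scaffold proteins. A single form of the NRF1 core, GCGCA followed by its reverse complement, was in 0 of 36 member windows, against 1.07% of all genes with a window. Other forms of that core were not searched for. The Timm8b window below holds GCGCGTGCGC near its end, which differs from the searched string in a single base. The ERR core AAGGTCA was in 3 members (Timm23, Timm44 and Timm8b; 8.33%), against 5.38% of all genes with a window. Windows are printed on the coding strand from 250 bases before to 30 after the start, with matches in capitals. That of Timm23 (chr14:32201862-32202141, minus strand) holds 2 ETS/GABP cores and an ERR core that shares 3 bases with the second of them. That of Timm8b (chr9:50603651-50603930, plus strand) holds an ERR core and an ETS/GABP core. Tomm34 (chr2:164071140-164071419, minus strand), which was not called, also holds an ETS/GABP core.
Timm23: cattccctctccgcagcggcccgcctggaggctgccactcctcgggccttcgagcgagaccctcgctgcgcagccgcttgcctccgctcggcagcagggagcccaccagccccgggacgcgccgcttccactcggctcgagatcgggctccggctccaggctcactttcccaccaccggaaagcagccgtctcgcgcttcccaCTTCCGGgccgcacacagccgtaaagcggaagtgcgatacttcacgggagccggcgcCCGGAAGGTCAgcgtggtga
Timm8b: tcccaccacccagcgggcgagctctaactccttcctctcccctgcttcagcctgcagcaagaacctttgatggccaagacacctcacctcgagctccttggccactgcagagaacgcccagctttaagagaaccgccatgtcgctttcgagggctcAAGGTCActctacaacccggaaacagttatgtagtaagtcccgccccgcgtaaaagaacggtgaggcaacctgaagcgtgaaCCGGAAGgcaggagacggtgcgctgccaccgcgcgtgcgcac
Tomm34: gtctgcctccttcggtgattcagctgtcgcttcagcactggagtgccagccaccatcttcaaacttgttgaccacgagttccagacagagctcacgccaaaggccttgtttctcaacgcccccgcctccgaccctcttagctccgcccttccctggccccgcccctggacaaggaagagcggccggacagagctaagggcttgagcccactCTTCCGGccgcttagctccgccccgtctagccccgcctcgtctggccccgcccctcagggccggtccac
The core was thus found in windows of 2 members that fell and of the member with the smallest change. A match here is a string of letters, and binding was not measured.

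At the outer membrane, 8 of 9 tested TOM genes fell, and the median over the 9 was -0.91 on the log2 scale. Tomm5, a small subunit that helps pass precursors to the channel, was the most abundant by TPM, averaging 372 TPM over 12 libraries. It had 35.3 and 35.6 CPM in MI replicates 1 and 2 and 116, 112, 112 and 117 CPM in MI replicates 3 to 6, against 132 and 146 CPM in sham replicates 1 and 2 and 237, 228, 242 and 234 CPM in sham replicates 3 to 6. No MI library reached the lowest sham library, and Tomm5 fell with a log2 fold change of -1.35 (SE 0.14, edgeR adjusted p = 2.63e-06). Tomm40l, a paralog of the channel-forming subunit Tomm40, fell furthest in this group. It had 35.8 and 31.5 CPM in MI replicates 1 and 2 and 47.2, 45.3, 45.0 and 51.1 CPM in MI replicates 3 to 6, against 158 and 144 CPM in sham replicates 1 and 2 and 138, 129, 128 and 121 CPM in sham replicates 3 to 6. All MI libraries lay below all sham libraries, and the log2 fold change was -1.69 (SE 0.12, edgeR adjusted p = 9.07e-08). Of its exonic bases 64.3% overlap Nr1i3 on the other strand, and the sources used here do not state strandedness, so reads of the 2 genes cannot be told apart.

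The receptors of the complex had fold changes nearer 0 than Tomm5 and Tomm40l, though not nearer than every other subunit. Tomm20, the receptor for presequences, had 78.5 and 84.2 CPM in MI replicates 1 and 2 and 159, 165, 157 and 158 CPM in MI replicates 3 to 6, against 117 and 117 CPM in sham replicates 1 and 2 and 274, 258, 265 and 261 CPM in sham replicates 3 to 6. Groups did not overlap within a set, and the log2 fold change was -0.66 (SE 0.06, edgeR adjusted p = 4.37e-07), though the call with replicates 3 to 6 counted once was lost without MI replicate 1, where the 12-library log2 fold change was -0.64 (edgeR adjusted p = 1.27e-06). Tomm22, the central receptor, fell with -0.91 (SE 0.06). Tomm70a, the receptor for carrier precursors, fell with -0.56 (SE 0.13), but its call with replicates 3 to 6 counted once was lost without any of the 4 libraries of replicates 1 and 2. Tomm40 fell with -1.28 (SE 0.18), and the small subunits Tomm7 and Tomm6 with -0.93 (SE 0.05) and -0.33 (SE 0.05). For Tomm6, 76.0% of exonic bases overlap annotated exons of other genes on the same strand, and it too lost its call by both tests without any library of replicates 1 and 2.

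Tomm34, a co-chaperone found largely in the cytosol, was the TOM-named gene that did not pass. It had 25.0 and 21.5 CPM in MI replicates 1 and 2 and 21.8, 21.9, 22.4 and 21.9 CPM in MI replicates 3 to 6, against 24.4 and 21.3 CPM in sham replicates 1 and 2 and 26.0, 25.2, 27.2 and 23.9 CPM in sham replicates 3 to 6. The groups interleaved in replicates 1 and 2 and were close but separate in replicates 3 to 6. On the log2 scale the change was -0.13 (SE 0.07, edgeR adjusted p = 0.0916), or 0.01 within replicates 1 and 2 and -0.17 within replicates 3 to 6. Tomm20l, a paralog of Tomm20, was scarce, with 1, 1, 6, 8, 3 and 8 counts in MI libraries 1 to 6 against 15, 3, 17.7, 18, 16 and 11 expected counts in sham libraries 1 to 6. Its log2 fold change in replicates 3 to 6 alone was -2.24 (SE 0.33, edgeR adjusted p = 2.28e-07), and 6.8% of its exonic bases overlap Timm9.

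**Figure D2:**
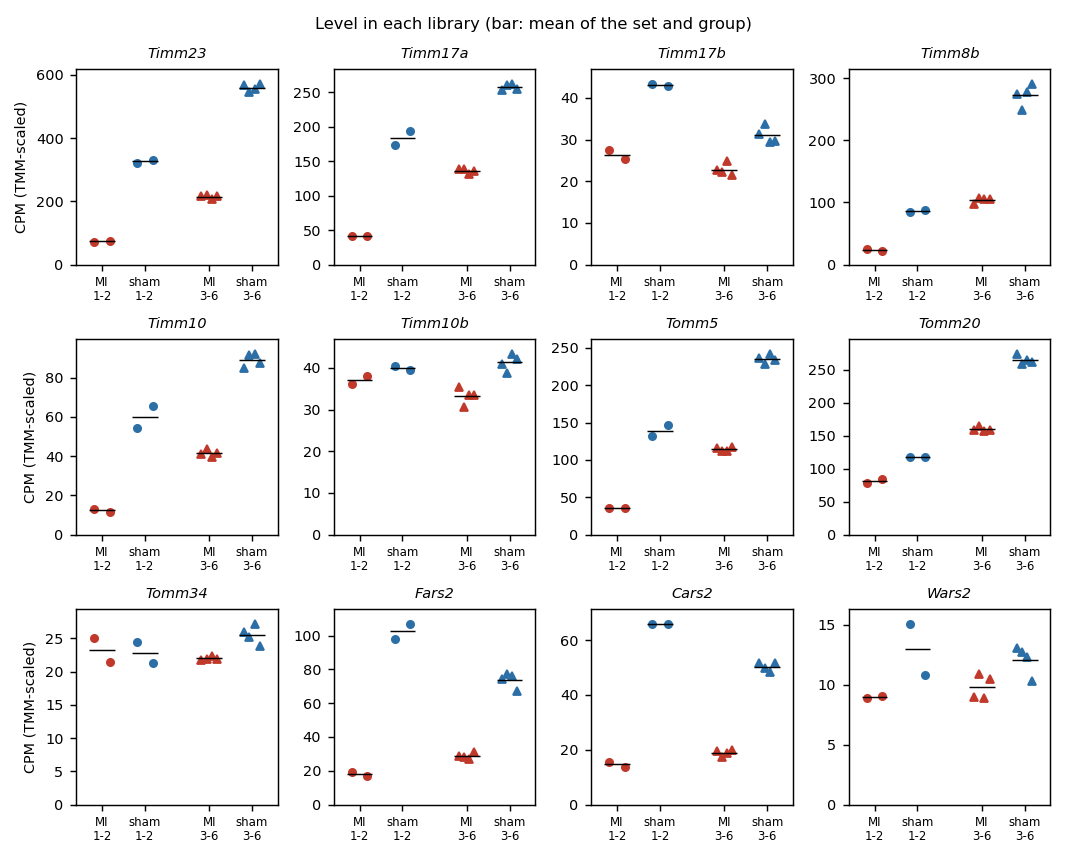
Each panel gives the level of a gene in every library (y axis, TMM-scaled CPM from 0), with MI in red left of sham in blue, circles for replicates 1 and 2, triangles for replicates 3 to 6, and bars at the mean. Timm23, Timm17a, Timm8b, Timm10, Tomm5, Fars2 and Cars2 show MI well below sham in both sets, while Timm10b and Tomm34 lie at similar heights and Wars2 overlaps in replicates 3 to 6.

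The TIM23 complex and its import motor had the lowest median of the import groups, -1.30, and all 6 genes fell. Timm23, the channel subunit, had 72.5 and 74.1 CPM in MI replicates 1 and 2 and 216, 220.2, 209 and 216 CPM in MI replicates 3 to 6, against 323 and 331 CPM in sham replicates 1 and 2 and 567, 545, 554 and 572 CPM in sham replicates 3 to 6. Every MI library was below every sham library. Timm23 fell with -1.64 (SE 0.12, edgeR adjusted p = 1.74e-07). Replicates 1 and 2 alone gave -2.18, and replicates 3 to 6 alone gave -1.33. Timm44, which tethers the motor to the channel, fell with -1.44 (SE 0.17). Timm21, which contacts the TOM complex, fell with -1.28 (SE 0.12), and Timm50, the presequence receptor, with -1.14 (SE 0.16).

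Both forms of the partner subunit Timm17 fell. Timm17a had 41.2 and 40.9 CPM in MI replicates 1 and 2 and 138, 139, 131 and 135 CPM in MI replicates 3 to 6, against 173 and 193 CPM in sham replicates 1 and 2 and 253, 259.7, 262 and 254 CPM in sham replicates 3 to 6. Timm17b had 27.4 and 25.4 CPM in MI replicates 1 and 2 and 22.6, 22.2, 24.8 and 21.4 CPM in MI replicates 3 to 6, against 43.4 and 42.8 CPM in sham replicates 1 and 2 and 31.4, 33.7, 29.5 and 29.7 CPM in sham replicates 3 to 6. Both lay below sham in every MI library of either set. The fall was -1.32 (SE 0.18, edgeR adjusted p = 2.99e-05) for Timm17a and -0.54 (SE 0.07, edgeR adjusted p = 1.17e-05) for Timm17b. The ratio of Timm17a to Timm17b did not pass an exact two-sided permutation test over 12 libraries (log2 difference -0.80, adjusted p = 0.165). That difference was -1.45 within replicates 1 and 2 and -0.47 within replicates 3 to 6, and MI and sham ratios overlapped in neither set.

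Both TIM22 members fell. Timm22, the channel for carrier proteins, had 21.3 and 22.4 CPM in MI replicates 1 and 2 and 33.9, 31.3, 33.5 and 32.5 CPM in MI replicates 3 to 6, against 45.9 and 52.9 CPM in sham replicates 1 and 2 and 49.6, 54.2, 57.5 and 51.8 CPM in sham replicates 3 to 6. MI libraries were below sham libraries throughout, with a log2 fold change of -0.86 (SE 0.09, edgeR adjusted p = 2.08e-06). Timm29, a TIM22 subunit described in human cells, had 40.0 and 37.6 CPM in MI replicates 1 and 2 and 46.8, 48.8, 51.1 and 47.0 CPM in MI replicates 3 to 6, against 127 and 107 CPM in sham replicates 1 and 2 and 89.8, 95.0, 92.9 and 97.2 CPM in sham replicates 3 to 6. It likewise showed no overlap, with a log2 fold change of -1.17 (SE 0.10, edgeR adjusted p = 7.61e-07).

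Among the small TIM genes, 5 of 6 tested fell, with a median of -0.97. Timm8b was the most abundant member by TPM, averaging 442 TPM over 12 libraries, just above Timm23 with 432 TPM. In replicates 1 and 2 Timm8b was below Timm23, averaging 111 against 150.1 TPM in MI and 260.0 against 423 TPM in sham. It had 24.8 and 22.0 CPM in MI replicates 1 and 2 and 96.8, 107, 105 and 106 CPM in MI replicates 3 to 6, against 84.6 and 88.2 CPM in sham replicates 1 and 2 and 274, 249, 277 and 291 CPM in sham replicates 3 to 6. MI lay below sham within each set, though MI replicates 3 to 6 exceeded sham replicates 1 and 2. It fell with -1.55 (SE 0.09, edgeR adjusted p = 2.17e-08), and 15.6% of its exonic bases overlap Nkapd1 on the other strand. Timm10, which forms the main escort complex with Timm9, had 12.9 and 11.7 CPM in MI replicates 1 and 2 and 41.0, 43.6, 39.4 and 41.7 CPM in MI replicates 3 to 6, against 54.4 and 65.3 CPM in sham replicates 1 and 2 and 85.1, 91.5, 92.1 and 87.5 CPM in sham replicates 3 to 6. It showed no overlap and fell with -1.48 (SE 0.17, edgeR adjusted p = 8.34e-06).

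Timm10b, a related subunit bound to the TIM22 complex, was not called by both tests. It had 36.1 and 38.1 CPM in MI replicates 1 and 2 and 35.5, 30.7, 33.4 and 33.4 CPM in MI replicates 3 to 6, against 40.4 and 39.4 CPM in sham replicates 1 and 2 and 41.0, 38.9, 43.4 and 42.1 CPM in sham replicates 3 to 6. The groups did not overlap but lay close together, and the log2 fold change was -0.24 (SE 0.06, edgeR adjusted p = 0.00214), which did not pass with replicates 3 to 6 counted once (edgeR adjusted p = 0.182). The remaining small TIM genes fell by intermediate amounts, Timm13 with -0.99 (SE 0.06), Timm9 with -0.96 (SE 0.08) and Timm8a1, whose human counterpart is mutated in a deafness-dystonia syndrome, with -0.89 (SE 0.13).

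Ratios of related import genes were taken within each library. Of 5 pairs tested by exact two-sided permutation with adjustment over the pairs, 2 passed over 12 libraries. The log2 ratio of Timm10 to Timm10b ran from -1.70 to -1.47 in MI replicates 1 and 2, against 0.43 to 0.73 in sham, and from 0.21 to 0.51 in MI replicates 3 to 6, against 1.05 to 1.23 in sham. Within each set all MI ratios were below all sham ratios, while between sets the highest MI ratio, 0.51, passed the lowest sham ratio, 0.43. The difference was -1.25 (adjusted p = 0.0216). The ratio of Tomm20 to Tomm20l was higher in MI by 1.43 (adjusted p = 0.0216) but rests on the scarce Tomm20l counts. Tomm20l had 0.0462 to 0.0481 CPM in MI replicates 1 and 2, under the pseudocount, and on TPM the difference was 1.86. Counted once, where an exact permutation of 3 against 3 cannot go below p = 0.1, both had an adjusted p of 0.375. Timm8a1 to Timm8b differed by 0.65 (adjusted p = 0.0541) and Tomm40 to Tomm40l by 0.41 (adjusted p = 0.223). For both pairs the groups were separate in replicates 3 to 6.

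**Figure D3:**
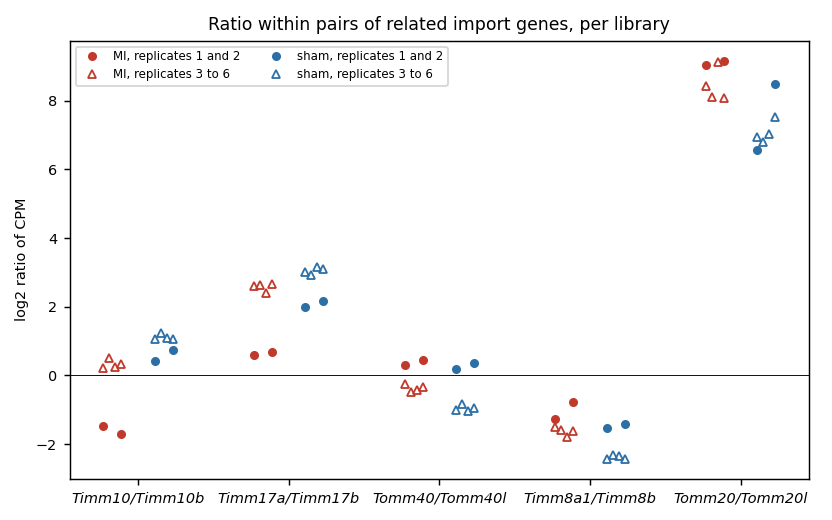
The log2 ratio of CPM (y axis) is given per library for 5 pairs of related import genes, with MI in red left of sham in blue, filled circles for replicates 1 and 2 and open triangles for replicates 3 to 6. For Timm10/Timm10b the MI ratios, from -1.70 to 0.51, sit lower within each set than the sham ratios, from 0.43 to 1.23.

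Of the 17 mitochondrial synthetases 16 fell, with a median of -1.18. Class I and class II enzymes, which differ in the fold of their catalytic domain, had near-equal medians of -1.18 (8 of 9 fell) and -1.17 (8 of 8 fell). In class I, Iars2, which charges isoleucine, had the highest TPM, averaging 40.8 TPM over 12 libraries. It had 49.6 and 48.5 CPM in MI replicates 1 and 2 and 60.3, 60.1, 60.3 and 55.9 CPM in MI replicates 3 to 6, against 188 and 164 CPM in sham replicates 1 and 2 and 108, 104, 109.9 and 105 CPM in sham replicates 3 to 6. There was no overlap, and it fell with -1.18 (SE 0.15, edgeR adjusted p = 1.42e-05); 24.2% of its exonic bases overlap genes on the other strand. Cars2, for cysteine, had the lowest 12-library log2 fold change of its class. It had 15.7 and 13.8 CPM in MI replicates 1 and 2 and 19.5, 17.5, 18.8 and 19.9 CPM in MI replicates 3 to 6, against 65.8 and 66.0 CPM in sham replicates 1 and 2 and 51.6, 49.7, 48.3 and 51.7 CPM in sham replicates 3 to 6. Every MI library was below every sham library, with a log2 fold change of -1.66 (SE 0.12, edgeR adjusted p = 1.14e-07).

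Yars2, for tyrosine, fell with -1.50 (SE 0.16), Lars2, for leucine, with -1.43 (SE 0.16), and Mars2, for methionine, with -1.21 (SE 0.17). Ears2, for glutamate, fell with -0.94 (SE 0.15), Vars2, for valine, with -0.78 (SE 0.15), and Rars2, for arginine, with -0.68 (SE 0.10). Wars2, for tryptophan, did not pass. It had 8.90 and 9.06 CPM in MI replicates 1 and 2 and 8.95, 10.9, 8.88 and 10.5 CPM in MI replicates 3 to 6, against 15.1 and 10.8 CPM in sham replicates 1 and 2 and 13.1, 12.7, 12.3 and 10.3 CPM in sham replicates 3 to 6. Its groups overlapped in replicates 3 to 6, and the log2 fold change was -0.38 (SE 0.11, edgeR adjusted p = 0.00651), which was not called with replicates 3 to 6 counted once (edgeR adjusted p = 0.0756). It had 146 to 196 expected counts per MI library and 84.5 to 199 per sham library.

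In class II, Fars2, for phenylalanine, was both the most abundant, averaging 47.5 TPM over 12 libraries, and the member with the lowest 12-library log2 fold change, though in replicates 3 to 6 alone it had -1.31 and Tomm40l had -1.40. It had 19.5 and 16.6 CPM in MI replicates 1 and 2 and 28.7, 28.2, 26.8 and 31.1 CPM in MI replicates 3 to 6, against 97.9 and 107 CPM in sham replicates 1 and 2 and 74.4, 77.3, 75.9 and 67.0 CPM in sham replicates 3 to 6. Its MI libraries were all far below sham, and the log2 fold change was -1.74 (SE 0.17, edgeR adjusted p = 2.10e-06). Aars2, for alanine, whose human defects cause infantile cardiomyopathy, fell with -1.51 (SE 0.22). Sars2, for serine, fell with -1.24 (SE 0.15), Nars2, for asparagine, with -1.21 (SE 0.07), and Tars2, for threonine, with -1.13 (SE 0.16). Pars2, for proline, fell with -1.07 (SE 0.19), and Hars2, for histidine, with -0.69 (SE 0.05).

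The fall was larger in replicates 1 and 2 for many members. The difference between sets passed for 30 of 40 members in the 12-library edgeR test, against 55.0% of all genes, for 13 with replicates 3 to 6 counted once, against 10.4%, and for the same 13 by both, against 10.6%. The 13 included Aars2, Fars2, Iars2, Lars2, Tars2, Timm10, Timm17a, Timm44, Timm50, Tomm40, Tomm5 and Yars2, and all 13 had a log2 fold change nearer 0 in replicates 3 to 6. The cardiomyocyte markers differed in the same direction, with a median of -3.94 for replicates 1 and 2, against -1.55 for replicates 3 to 6. The part of this in the members' difference was not tested.

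Synthetase genes not confined to mitochondria, taken with their scaffold proteins, were mostly not called by both tests. Of 23 tested synthetase genes of the cytosol or of both compartments, and their scaffold proteins, 8 fell, 1 rose and 14 did not pass both tests, with a median of -0.09, where 29.8% of all genes fell and 28.1% rose. In replicates 1 and 2 alone edgeR called 13 lower and 1 higher, against 32.9% and 34.1% of all genes, and in replicates 3 to 6 alone 8 lower and 14 higher, against 39.6% and 42.3%. Those that fell included Kars, the lysine enzyme that serves both compartments, with -0.92 (SE 0.06), and Aimp1, a scaffold of the multi-synthetase complex, with -0.92 (SE 0.06). Tarsl2, a threonine enzyme, fell most, with -1.79 (SE 0.19), and Cars, for cysteine, rose with 0.55 (SE 0.07). The median of the list was -0.47 within replicates 1 and 2, and 0.17 within replicates 3 to 6. A difference between sets passed for 21 of the 23 in the 12-library edgeR test, against 55.0% of all genes. It passed for only 2 by both tests, against 10.6% of all genes.

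The ratio of a mitochondrial synthetase to its cytosolic counterpart was taken within each library, for 15 pairs chosen after the data were seen. By exact two-sided permutation over 12 libraries with adjustment over the pairs, 14 of 15 were lower in MI (adjusted p = 0.0025 to 0.00464, where 0.00216 is the smallest unadjusted p), with a median difference of -1.28 over the 15 pairs. Most mitochondrial genes of these pairs were already known to have fallen, so these p-values add no independent support. The share among other gene pairs was not computed. Cars2 to Cars differed most. Its log2 ratio ran from -1.38 to -0.98 in MI replicates 1 and 2, against 1.42 to 1.59 in sham, and from -1.04 to -0.69 in MI replicates 3 to 6, against 0.93 to 1.39 in sham. All ratios were negative in MI and positive in sham, with a difference of -2.21. On TPM, which allows for gene length, the mean log2 ratio was -0.76 in MI and 1.95 in sham in replicates 1 and 2, and -0.46 in MI and 1.51 in sham in replicates 3 to 6.

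Aars2 to Aars followed with -1.80 and Yars2 to Yars with -1.65. Wars2 to Wars did not pass (-0.29, adjusted p = 0.184, exact permutation). All MI ratios lay below all sham ratios in 14 of 15 pairs in replicates 1 and 2 and in 14 in replicates 3 to 6. For Hars2 to Hars in replicates 1 and 2 the separation was lost on rounding, with the highest MI and lowest sham ratio both at -0.92. Ears2 and Pars2 share the counterpart Eprs, the joint enzyme for glutamate and proline. With replicates 3 to 6 counted once, no pair could pass, since p cannot go below 0.1.

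**Figure D4:**
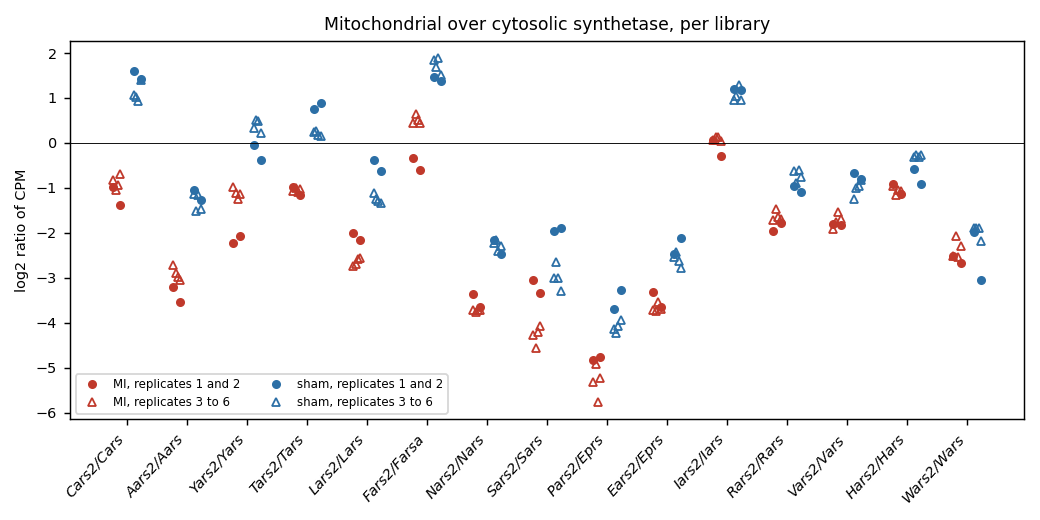
For 15 pairs the log2 ratio of CPM of the mitochondrial over the cytosolic synthetase (y axis) is given per library, with MI in red left of sham in blue, filled circles for replicates 1 and 2 and open triangles for replicates 3 to 6. MI points sit below sham points in nearly every pair, most widely for Cars2/Cars (-2.21) and least for Wars2/Wars (-0.29).

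A motif known from the amino acid response was also looked for. The ATF4/CEBP core TGATGNAA, on either strand, was in 0 of 36 member windows and in 5 of 17 windows of the cytosolic or shared list (Aars, Gars, Iars, Tars and Yars; 29.4%), against 4.51% of all genes with a window. The YY1 core AANATGGCG was in 6 members (Aars2, Lars2, Timm44, Timm50, Wars2 and Yars2; 16.7%), against 2.76% of all genes with a window, 4.42% of those in the deposited table and 2 of 17 windows (11.8%) of the cytosolic or shared list. The alanine pair shows both, printed in the same way as above, with the YY1 core of Aars2 (chr17:45506582-45506861, plus strand) and the 2 non-overlapping ATF4/CEBP cores of Aars (chr8:111033592-111033871, plus strand) in capitals. Aars2 fell, while Aars, with 0.32 (edgeR adjusted p = 0.0389 over 12 libraries and 0.908 counted once), was not called.
Aars2: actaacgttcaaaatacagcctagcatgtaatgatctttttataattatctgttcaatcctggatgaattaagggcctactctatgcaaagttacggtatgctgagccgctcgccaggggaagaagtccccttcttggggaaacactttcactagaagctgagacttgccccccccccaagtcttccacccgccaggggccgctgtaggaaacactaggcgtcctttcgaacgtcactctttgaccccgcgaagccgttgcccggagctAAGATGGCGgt
Aars: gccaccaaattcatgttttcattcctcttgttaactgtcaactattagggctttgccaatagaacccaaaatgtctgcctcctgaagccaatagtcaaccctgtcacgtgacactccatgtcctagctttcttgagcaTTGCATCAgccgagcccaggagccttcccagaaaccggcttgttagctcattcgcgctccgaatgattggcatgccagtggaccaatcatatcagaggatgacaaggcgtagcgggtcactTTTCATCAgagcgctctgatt
These matches describe the letters in the windows and say nothing of occupancy by either factor.

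Genes that work beside the members fell too. Of 27 other import genes 26 fell and 1 rose, with a median of -1.40. Immp2l, a subunit of the inner membrane peptidase, fell with -2.31 (SE 0.18), Mipep, the intermediate peptidase, with -2.25 (SE 0.16), and Hspa9, the motor's Hsp70, with -1.54 (SE 0.21). Mtx3, a metaxin, rose with 0.47 (SE 0.07). Of 31 other mitochondrial translation genes 27 fell, 0 rose and 4 did not pass (Gtpbp3, Mtfmt, Nsun3 and Trit1), with a median of -1.11. Set against both lists, 29.8% of all tested genes fell and 28.1% rose by the same rule. Gatb, a subunit of the amidotransferase that makes glutaminyl-tRNA, fell with -1.99 (SE 0.12), and Tufm, the elongation factor, with -1.93 (SE 0.21). These medians lay between those of the cytosolic synthetases and the cardiomyocyte markers.

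**Figure D5:**
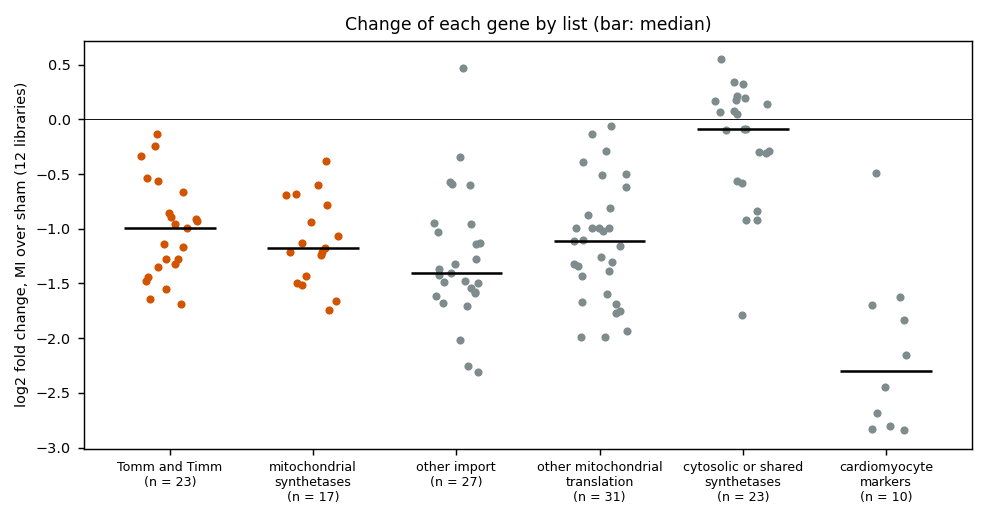
The log2 fold change of MI over sham over 12 libraries (y axis) is given for each gene of 6 lists, members in orange and other lists in grey, with bars at the medians. The medians are -0.99 for Tomm and Timm genes, -1.18 for mitochondrial synthetases, -1.40 for other import genes, -1.11 for other translation genes, -0.09 for cytosolic or shared synthetases and -2.30 for cardiomyocyte markers.

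Position in the genome was compared as well. In the GENCODE annotation, 8 of 42 members (19.0%) have a gene on the other strand starting within 1000 bases in the opposite direction, against 8.34% of 17167 other protein-coding genes of the table. Some partners moved with the member. Sars2 fell with -1.24 beside Mrps12, a mitochondrial ribosomal protein gene, with -1.29, and Timm8b with -1.55 beside Sdhd, a complex II subunit gene, with -1.93. Others did not, as Timm23 fell beside Parg, which had 0.14 (edgeR adjusted p = 0.0639), and Timm17b beside Pqbp1, which had 0.09 (edgeR adjusted p = 0.265).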

How the data were processed

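Poly(A) RNA of 12 left ventricle libraries (6 MI, 6 sham) was sequenced, per the labels' protocols. The submitters' processing notes name GRCm38 for all libraries, and Bowtie2, RSEM and DESeq2 for replicates 3 to 6 only. The authors deposited expected counts (unscaled estimates per gene), TPM (scaled to gene length and a common total) and FPKM (scaled to gene length and fragment total) in 1 table of 18050 genes, and FPKM of replicates 1 and 2 in a separate table. Of the genes, 425 are blank in replicates 1 and 2, none of them a member.

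Expected counts were rounded and tested across the whole table with edgeR 4.0.16 in R 4.3.3 (quasi-likelihood, TMM scaling, filterByExpr, Benjamini-Hochberg adjustment, threshold 0.05), with set as covariate. The test was repeated with replicates 3 to 6 summed per group, within each set, and for the interaction of set and group. Standard errors are the log2 fold change over the square root of F. Levels are TMM-scaled CPM, and log2 ratios used a pseudocount of 0.1 CPM. The edgeR tests were tested on simulated data.

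The members, gene lists, pairs, motifs and tests were chosen with earlier results of these data known. Per-library values are given, within each role, for the most abundant member, those with the largest fall and the highest log2 fold change, and genes of a pair whose ratio passed; further genes of each list were chosen after their values were seen. RefSeq and GENCODE annotation of GRCm38 supplied positions, and 17995 IDs matched. Counts and medians cover all members, but 1 member is not reported here on its own, nor is its pair. Of the listed genes of other roles and markers, 114 were found and 1 was not. Alternatives covered scaling, filter, test (DESeq2 1.42.0), covariate, replicate block, TPM, FPKM and leaving out each library.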

Additional observations from a re-analysis of the deposited data

Results flagged for a closer look

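For 13 members the change differed between sets by both interaction tests, and 12 of them are given here. As the log2 fold change in replicates 3 to 6 minus that in replicates 1 and 2, the difference was 1.43 for Aars2, 1.24 for Timm17a, 1.20 for Tomm40, 1.18 for Timm10, 1.17 for Timm44 and 1.15 for Fars2. It was 1.12 for Tars2, 1.05 for Lars2, Timm50 and Yars2, 0.99 for Iars2 and 0.93 for Tomm5. All 13 fell by both tests, and their fold changes were nearer 0 in replicates 3 to 6.

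Tomm34 had 25.0 CPM in MI replicate 1, apart from the other MI libraries at 21.5 to 22.4 CPM, a gap that chance gives in about 1 of 20 groups.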

How the results depend on the processing

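With library size alone the median log2 fold change of members was -0.73 over 12 libraries (all genes 0.42), -1.16 in replicates 1 and 2 and -0.48 in replicates 3 to 6, the 12-library test called 33 members lower and 2 higher, both tests called 30 as fallen, and Timm10b (0.17), Tomm34 (0.27), Tomm6 (0.08) and Wars2 (0.03) reversed. Deposited TPM gave medians of -0.96 in replicates 1 and 2 (all genes 0.71) and -0.23 in replicates 3 to 6 (all genes 0.62), the separate FPKM table gave -1.18 in replicates 1 and 2 (all genes 0.48), and DESeq2-type size factors gave -1.65 there. Without the set covariate, 23 members were called lower with replicates 3 to 6 counted once, and 23 by both tests. Counted once, the members' median was -1.37, 13 members differed between sets (also 13 by both tests), and the ratios Timm10/Timm10b (-1.71) and Tomm20/Tomm20l (1.51) no longer passed. Leaving out each library moved the median between -1.189 and -1.004 over 12 libraries, between -1.72 and -1.58 in replicates 1 and 2 and between -0.86 and -0.81 in replicates 3 to 6, and the count fallen by both tests between 33 and 37. Timm8a1/Timm8b ranged from 0.52 to 0.79 and passed without sham replicate 1 (0.76) or 2 (0.79). Correlations of same-numbered MI and sham libraries, centred within set and group, ran from -0.0479 to 0.064. Centring forces replicates 1 and 2 to the same value, so these correlations cannot decide whether replicate numbers pair the samples. With the replicate block both tests called 35 members fallen. The causes were not tested. The precision of Tomm20l and Timm8a2 is limited by their counts, and counts of 2 libraries per group limit replicates 1 and 2.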
